A study of Mus musculus with 6 samples.

Results

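The genes examined here encode the proteins of elastic fibres and of the microfibrils that carry them. They comprise elastin (Eln), the fibrillins Fbn1 and Fbn2, the fibulins Fbln1, Fbln2, Fbln5 and Efemp2, and the microfibril-associated proteins Mfap2, Mfap4 and Mfap5. All 10 were listed by gene name, with no measured value in the rule, but were chosen with earlier results of these data known. All 10 were found among the 49548 genes of the table. They were measured by 3′ mRNA sequencing in synovial fibroblasts (SFs), mesenchymal cells of the joint lining. Ankle joints were the source of the cells, taken at an age of 8 weeks from mice on a CBA C57BL/6J background that carry a human TNF transgene (hTNFtg) and develop polyarthritis, and cells positive for CD45, a leucocyte surface protein, had been depleted at passage 1. The 3 untreated and 3 amisulpride libraries all carried the transgene, and no wild-type cells were analysed here. Treated cells received 500 μM amisulpride, an antipsychotic drug that blocks dopamine receptors, for 48 hours. The labels give no treatment for the controls, whereas the methods of the study speak of vehicle. The libraries are described as biological replicates, but nothing says that each came from a separate animal, so p-values measure the spread between these cultures.

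An elastic fibre has a core of crosslinked elastin laid on a sheath of microfibrils, whose backbone is fibrillin. Fibulins bring soluble elastin to the microfibril and to the lysyl oxidases that crosslink it. The microfibril-associated glycoproteins bind fibrillin, and the microfibril also holds latent TGF-β through the latent TGF-β binding proteins. Fibroblasts of the joint capsule, ligaments and synovium deposit these matrices.

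Values are normalised counts, that is reads per gene scaled between libraries by the authors and rounded to whole numbers. A 3′ kit reads only transcript ends, so counts were not divided by gene length when levels of different genes were compared. A change was called at the study thresholds, a log2 fold change of 1 or more in size together with a limma p-value below 0.05 before adjustment, or at an adjusted p-value under 0.05 over the 12614 genes tested. Low values are set against a floor of 3 reads, which was 2.50 to 5.37 normalised counts depending on the library.

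The libraries held approximately 2.52 to 4.71 M reads. No molecular identifiers are named in the sources used here, so floors and intervals cover counting error only. Amisulpride replicate 3 was the shallowest and stood apart on the leading principal component, at 73.9 against -38.2 to 10.4 for the other libraries. All 10 fibroblast markers were detected and 0 of them passed the study thresholds, but with the replicate number as a block Lum (lumican), at 213, 546 and 168 against 142, 290 and 50, did so (log2 fold change -1.07, limma p 0.0901 without and 0.00149 with the block). Of the endothelial markers, Cdh5 and Tie1 were at 0 in every library, and the summed level of all 6 was at most 14. Of the leucocyte markers, Cd3e and Cd79a were at 0, and the sum of all 10 was 2226 to 3826 in untreated and 2019 to 3888 in treated libraries, most of it Lyz2. Of the 8 tested leucocyte markers, Csf1r and Cd14 were lower at the study thresholds, as were 3.01% of all genes tested. Ptprc (CD45 itself), at 38, 12 and 18 against 23, 5 and 5, was so only with the block (limma p 0.104 without and 0.036 with it). The other 5 did not pass, with log2 fold changes of 0.83 for Adgre1, 0.31 for Cd68, -0.14 for Lyz2, -0.15 for Itgam and -0.34 for Tyrobp. Of 6 tendon and 6 chondrocyte markers, 6 and 2 were tested and 0 passed. In a bulk sample, fewer cells of a type and less RNA per cell cannot be told apart.

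Of the 10 genes, 8 passed the filter on low values and 1, Mfap2, was lower in treated SFs at the study thresholds. Across all genes tested, 5.7% passed these thresholds in either direction, 3.01% lower and 2.69% higher, and a single call among 8 genes is no result about the group as a whole. With adjustment over all genes 0 of the 8 passed, against 0.285% of all genes in either direction and 0.19% lower, and 1 of the 8 had an unadjusted p-value under 0.05. With the replicate number as a block, where 2.08% of all genes passed the adjustment, Mfap2 was the 1 member that did. The median log2 fold change of the 8 genes was -0.45, where that of all genes was 0.00. Among them 6 had values below 0 and 2 above 0.

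**Figure D1:**
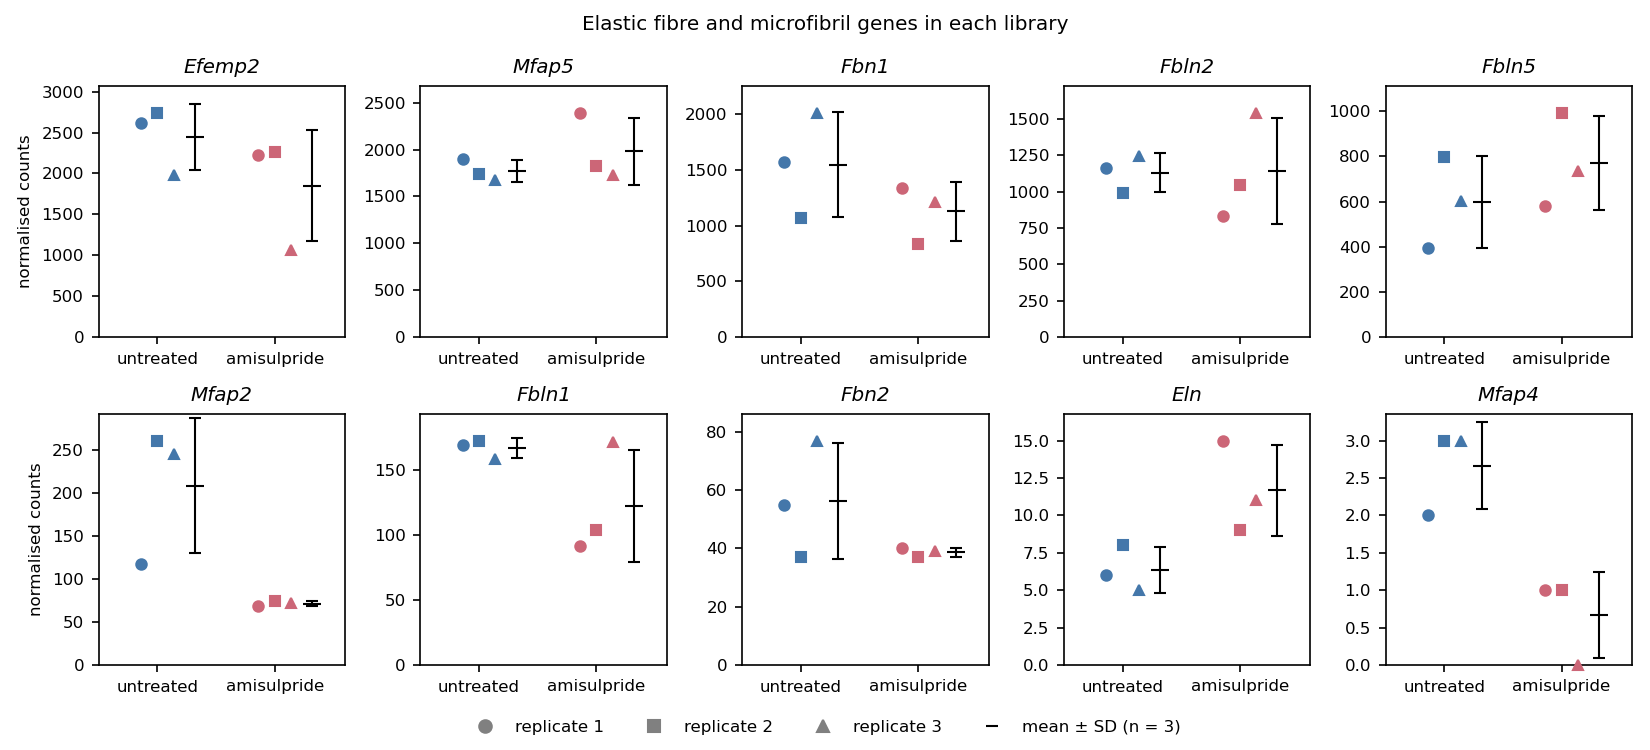
Normalised counts (vertical axis, linear from 0) of each gene in the 3 untreated and 3 amisulpride libraries, ordered by untreated level. Marker shapes give the replicate number and black bars the mean ± SD (n = 3). The treated values of Mfap2, 68 to 74, all lie under the untreated ones, 118 to 261, while the groups of the other 7 tested genes overlap.

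Levels spanned a wide range. Efemp2 and Mfap5 were the most abundant of the group in untreated SFs, followed by Fbn1, Fbln2, Fbln5, Mfap2, Fbln1 and Fbn2, with Eln and Mfap4 last. In that order, the untreated values of Mfap5 overlapped those of Fbn1, those of Fbn1 overlapped those of Fbln2, and those of Mfap2 overlapped those of Fbln1. The other neighbours did not overlap. In treated SFs the fall of Mfap2 put it under Fbln1, with no overlap between their values. Summed over the 10 genes, the level was 7989, 7818 and 8008 in untreated libraries and 7590, 7184 and 6573 in treated ones. Expressed as a share of all counts, this was 0.203% ± 0.00189 and 0.174% ± 0.0245 (SD, n = 3). All 3 treated sums lay under the untreated ones, with an exact two-sided permutation p of 0.1, the smallest that 3 against 3 libraries can give. The lowest sum was that of amisulpride replicate 3.

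Mfap2 encodes microfibril-associated glycoprotein 1 (MAGP-1), a small protein that binds fibrillin and TGF-β family ligands. The gene (ENSMUSG00000060572) lies on chromosome 4, 141010418 to 141015984, plus strand, in mm10, with 10 blocks of exons and 1211 exonic bases in the GENCODE annotation of that build. None of the exons overlapped another gene, and 0 of 640 words of 31 bases from its transcript ends occurred in a transcript of another gene. Its normalised counts were 118, 261 and 246 in untreated replicates 1, 2 and 3 and 68, 74 and 72 in the treated ones. The treated libraries lay within a narrow range, whereas untreated replicate 1 held less than the other two untreated libraries, and the groups did not overlap. Groups did not overlap in either direction for 16.5% of all genes tested, and with the treated group lower for 8.66% and higher for 7.8%. The mean fell from 208 ± 78.6 to 71.3 ± 3.06 (SD, n = 3). In log2 terms the change was -1.45 (SE 0.33), at a limma p of 0.000906 or 0.0965 after adjustment. With the replicate number as a block, the adjusted p was 0.0136. Mfap2 passed the study thresholds in all 14 alternatives, with log2 fold changes of -1.82 to -1.25 and adjusted p-values of 0.0136 to 0.444. The highest adjusted p-values, 0.444 and 0.359, came without untreated replicate 3 and without untreated replicate 2.

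The start of Mfap2 is shown because this is the only gene of the group that passed. The following 250 bases (RefSeq, GRCm38.p6, plus strand) end 1 base before an annotated start site that lies 6 bases inside the gene as listed. A CCAAT box, read here as ATTGG on the printed strand, and an E-box (CANNTG) are in capitals.
Mfap2 chr4:141010174-141010423: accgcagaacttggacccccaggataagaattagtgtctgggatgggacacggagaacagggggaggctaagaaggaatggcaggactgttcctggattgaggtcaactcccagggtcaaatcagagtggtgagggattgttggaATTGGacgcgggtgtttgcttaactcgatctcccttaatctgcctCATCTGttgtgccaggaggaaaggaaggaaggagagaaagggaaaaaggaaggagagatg
This window had a G+C content of 51.2%. A second annotated start further into the gene is preceded by a window of 68.8% G+C with 2 GC boxes (GGGCGG), against 0 in the printed one. The sequence table held windows for 6 of the 10 genes, namely Efemp2, Fbln1, Fbln2, Fbln5, Fbn1 and Mfap2, 11 windows in all. Searched on both strands, GGGCGG occurred in 8 of the 11 and in 32.7% of all 32851 windows of that length. The Efemp2 windows among these 8 had 59.2%, 75.6% and 78.8% G+C, against a median of 52.4% over all windows. The part of G+C content in this count was not tested. The letters TATAAA occurred in 0 of the 11, against 12.4% of all windows, and TGANTCA in 0, against 6.75%. CCAAT occurred in 2 of the 11 and in 33.9% of all windows, and CANNTG in 5 of the 11 and in 66.2%. These counts describe letters and not binding, and some windows of the same gene overlap.

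Mfap5 (chromosome 6, 122505845 to 122529290, plus strand) encodes the other microfibril-associated glycoprotein, MAGP-2, which also binds fibrillin. Its values were 1898, 1743 and 1674 in untreated libraries and 2390, 1826 and 1723 in treated ones. The groups overlapped, with amisulpride replicate 1 the highest of all. The mean was 1772 ± 115 against 1979.7 ± 359 (SD, n = 3), or 0.15 in log2 fold change (SE 0.24, limma adjusted p 0.857) with a 95% interval of -0.39 to 0.68. The ratio of Mfap2 to Mfap5 within a library does not depend on the scaling between libraries, and was examined after the values of both genes were known. It was 0.0622, 0.150 and 0.147 in untreated libraries and 0.0285, 0.0405 and 0.0418 in treated ones. All treated ratios lay under all untreated ones, which by itself sets the exact two-sided permutation p at 0.1, the smallest possible. The share of gene pairs with ratios apart was not counted. Likewise, the ratio of Mfap2 to Fbn1, its binding partner, was 0.0751, 0.245 and 0.122 in untreated and 0.0508, 0.0886 and 0.0594 in treated libraries. These groups overlapped, with an exact p of 0.2 that takes no account of the numbers, although each treated ratio was lower than that of the untreated library of its number.

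Some markers of contractile cell types were lower with the treatment, and these are given beside Mfap2 for that reason. Among 8 markers of smooth muscle cells and pericytes, 5 were tested and 3 were lower at the study thresholds, against 3.01% of all genes tested. These 3 were Acta2 (α-smooth muscle actin), Tagln (transgelin) and Cnn1 (calponin 1), which fibroblasts in culture also express. Their limma adjusted p-values were 0.225, 0.0761 and 0.0652, and 0.0142, 0.00135 and 0.00021 with the replicate block. Cspg4 and Smtn were also tested and did not pass, at log2 fold changes of 0.21 and -0.27 (limma adjusted p 0.879 and 0.755). Des was not tested, at 2, 2 and 0 in untreated and 9, 3 and 0 in treated libraries. The summed level of the 8 was 6462 to 11496 in untreated and 1676 to 5526 in treated libraries, most of it Acta2 and Tagln. Acta2 was at 6413, 5030 and 9384 in untreated and 2714, 1253 and 4586 in treated libraries. Tagln was at 1562, 1010 and 1708 and at 398, 226 and 684, and Cnn1 at 240, 117 and 231 and at 23, 1 and 27. Treated values of Mfap2 and of the 3 contractile genes lay under the untreated ones, as for 8.66% of all genes tested. Among untreated libraries, replicate 2 held the most Mfap2 and the least of the 3 contractile genes. Myh11, the myosin that defines mature smooth muscle, was at 1, 0 and 1 in untreated and at 0 in all treated libraries. Acta2 no longer passed the study thresholds without amisulpride replicate 2 (log2 fold change -0.93). The part of contractile genes or cells in the value of Mfap2 was not tested.

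**Figure D2:**
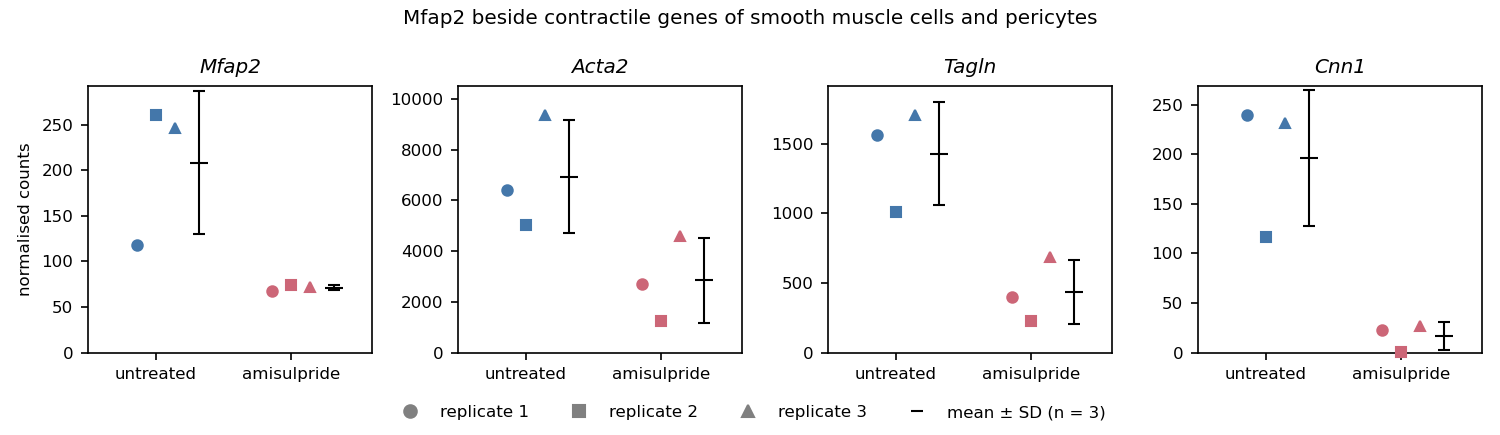
Normalised counts (vertical axes, linear from 0) of Mfap2 and of the 3 contractile markers that passed the study thresholds, in 3 untreated and 3 amisulpride libraries, with mean ± SD (n = 3) as black bars. In all 4 panels the treated values lie under the untreated ones, and untreated replicate 2 (square) is the highest untreated value for Mfap2 and the lowest for Acta2, Tagln and Cnn1.

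The fibrillins form the backbone of the microfibril. Fbn1 (chromosome 2, 125300594 to 125507993, minus strand), mutated in Marfan syndrome, was at 1572, 1066 and 2014 without the drug against 1339, 835 and 1213 with it. The groups overlapped. Each treated library was lower than the untreated library of its number, a pattern whose share over all genes was not counted. The mean was 1551 ± 474 against 1129 ± 262 (SD, n = 3), or -0.44 in log2 fold change (SE 0.30, limma adjusted p 0.639). With the replicate block the limma adjusted p of Fbn1 was 0.453. Exons of Gm9913, at 7 or less in every library, overlap 20.1% of its exonic bases on the opposite strand. Fbn2, the fibrillin of developing tissue (chromosome 18, 58008623 to 58209926, minus strand), was at 55, 37 and 77 against 40, 37 and 39. Its log2 fold change was -0.47 (SE 0.34, limma adjusted p 0.66) with a 95% interval of -1.22 to 0.27. The treated libraries of Fbn2 were close to each other, at 38.7 ± 1.53, and untreated replicate 2 lay among them. The ratio of Fbn2 to Fbn1 was 0.0360 ± 0.00196 in untreated and 0.0354 ± 0.00776 in treated libraries (exact permutation p of 0.8).

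The short fibulins Fbln5 and Efemp2 (fibulin-5 and fibulin-4) are the members that bring elastin and lysyl oxidase to the microfibril. Efemp2 (chromosome 19, 5473973 to 5481853, plus strand) was at 2614, 2740 and 1982 without the drug against 2228, 2258 and 1067 with it. The lowest value was that of amisulpride replicate 3, the groups overlapped, and each treated library was below its untreated counterpart by number. The log2 fold change was -0.47 (SE 0.32, limma adjusted p 0.643), and -0.11 in the least negative alternative. With the replicate block the limma adjusted p of Efemp2 was 0.445. Exons of Efemp2 overlap those of Mus81 on the opposite strand over 173 bases, but Mus81 was at no more than 66 in any library. Fbln5 (chromosome 12, 101746565 to 101819055, minus strand) was at 393, 799 and 603 without the drug against 582, 992 and 735 with it. Every treated library was above the untreated library of its number, by 1.22 to 1.48 times, while the groups as a whole overlapped. How many of all genes keep 1 side in the 3 numbers was not counted. Its log2 fold change was 0.39 (SE 0.31, limma adjusted p 0.7), and the adjusted p was 0.5 with the replicate block. The ratio of Fbln5 to Efemp2 was 0.150, 0.292 and 0.304 in untreated libraries and 0.261, 0.439 and 0.689 in treated ones. Groups overlapped in this ratio too (exact permutation p of 0.3, which takes no account of the numbers), although it was higher than its counterpart by number in all 3 treated libraries.

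Fbln1 and Fbln2, larger fibulins of elastic fibres and basement membranes, differed in spread between groups. Fbln1 (chromosome 15, 85205949 to 85286535, plus strand) was at 170, 173 and 159 in untreated libraries, a maximum 1.09 times the minimum. In treated libraries it was at 92, 104 and 172, so that replicates 1 and 2 lay under all untreated values and replicate 3 did not. The log2 fold change was -0.50 (SE 0.29, limma adjusted p 0.573), and was -0.77 at its most negative, without amisulpride replicate 3. Fbln2 (chromosome 6, 91212455 to 91272540, plus strand) was at 1161, 988 and 1245 without the drug against 835, 1048 and 1541 with it. Here amisulpride replicate 3 was the highest of all 6, and the log2 fold change was -0.03 (SE 0.27, limma adjusted p 0.98) with a 95% interval of -0.63 to 0.57. The ratio of Fbln1 to Fbln2 was 0.146, 0.175 and 0.128 in untreated and 0.110, 0.0992 and 0.112 in treated libraries. The groups did not overlap in this ratio, which was examined after the values of both genes were known. Such a separation by itself sets the exact permutation p at 0.1, the smallest possible. The share of gene pairs with ratios apart was not counted.

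**Figure D3:**
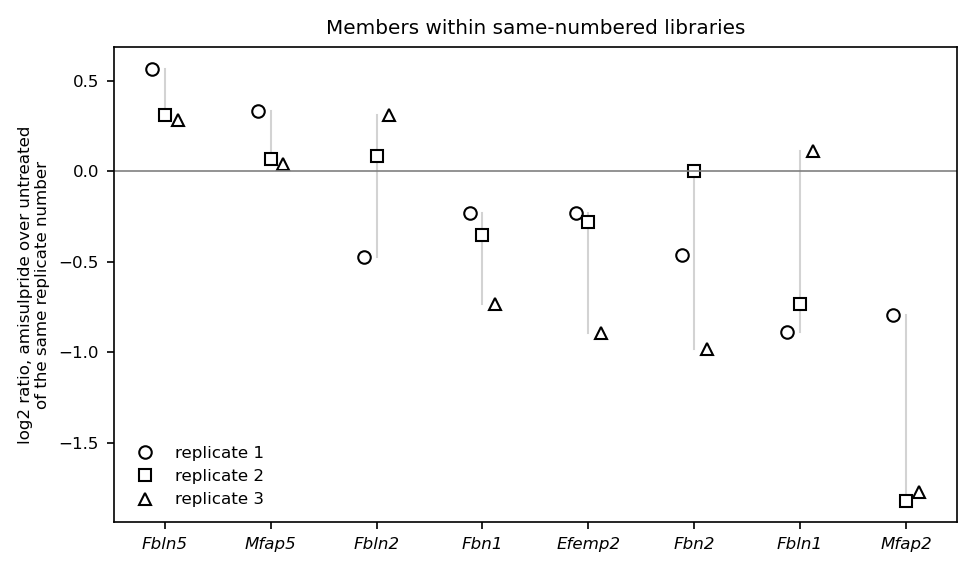
Log2 ratio (vertical axis) of each amisulpride library to the untreated library with the same replicate number, for the 8 tested genes. Marker shapes give the replicate number and grey lines the range. Fbln5 and Mfap5 lie above 0 in all 3 numbers, and Fbn1, Efemp2 and Mfap2 lie below 0 in all 3. Fbn2 lies below 0 in numbers 1 and 3 and at 0 in number 2, while Fbln1 and Fbln2 lie on both sides. The share of all genes that keep 1 side in the 3 numbers was not counted.

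Elastin mRNA was near the limit of detection in these cells. Eln (chromosome 5, 134702593 to 134747323, minus strand) was at 6, 8 and 5 normalised counts without the drug against 15, 9 and 11 with it. All 6 values lay above the floor of their library, and the treated ones above the untreated ones. Eln did not pass the filter of at least 10 in at least 3 libraries and was not tested in the comparison of all genes. In approximate reads the values were 6.14, 7.58 and 5.99 against 16.7, 6.72 and 6.14, so that 2 of the 3 treated libraries held as few reads as untreated ones, in shallower libraries. Summed by group, this was 1.61 reads per M (95% exact Poisson interval 0.984 to 2.49) against 3.04 (2.05 to 4.35). These intervals cover counting error only, and their overlap is no test of a difference. Without any filter the log2 fold change was 0.78 with a limma adjusted p of 0.762. Mfap4, a microfibril-associated protein with a fibrinogen-like domain (chromosome 11, 61485431 to 61488900, plus strand), was at 2, 3 and 3 without the drug against 1, 1 and 0 with it. The treated values lay under the untreated ones, but only that of untreated replicate 3 exceeded the floor of its library. Summed by group, this was 0.644 reads per M (95% exact Poisson interval 0.278 to 1.27) against 0.203 (0.0246 to 0.733). These intervals overlap, which is no test of a difference, and none is claimed at this depth. Without any filter the limma p was 0.0676, or 0.627 after adjustment. Exons of Mfap4 overlap those of Mapk7 on the opposite strand over 89 bases.

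The wider pathway was examined with 4 lists written from general knowledge. The study thresholds were passed by 5.7% of all genes tested, and the few calls below are no result about a list. Among 16 related microfibril and fibulin-family genes, 9 were tested, and 1 was higher and 1 lower at the study thresholds, with a median log2 fold change of -0.05. Fbln7, a fibulin of cartilage and teeth, was at 25, 26 and 12 without the drug against 60, 46 and 43 with it. Its log2 fold change was 1.26 (SE 0.39, limma adjusted p 0.235), and it no longer passed the study thresholds without untreated replicate 3 (0.92). Emilin2, an elastin microfibril interfacer, was at 509, 332 and 326 against 177, 126 and 293, or -1.02 in log2 fold change (SE 0.33, limma adjusted p 0.256). It no longer passed without untreated replicate 1 (-0.81), amisulpride replicate 1 (-0.98) or amisulpride replicate 2 (-0.74). The 4 latent TGF-β binding proteins had values of -0.45 for Ltbp1, -0.27 for Ltbp2, -0.05 for Ltbp3 and 0.14 for Ltbp4, and 0 of them passed.

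Among 20 assembly and crosslinking genes, 17 were tested, with 1 higher and 1 lower at the study thresholds and a median log2 fold change of -0.10. Over all genes tested, 2.69% were higher and 3.01% lower. Furin, the protease that trims profibrillin, fell from 514, 280 and 448 to 184, 182 and 165, or -1.18 in log2 fold change (SE 0.27, limma adjusted p 0.109), with an adjusted p of 0.0284 under the replicate block. Without untreated replicate 1 its log2 fold change was -0.998 and just missed the threshold. Tgm2, a transglutaminase that crosslinks matrix proteins, rose from 128, 258 and 185 to 325, 493 and 335, or 1.04 in log2 fold change (SE 0.30, limma adjusted p 0.209), with an adjusted p of 0.0429 under the replicate block. Tgm2 no longer passed without untreated replicate 1 (0.79) or amisulpride replicate 2 (0.85). Both Furin and Tgm2 had groups that did not overlap, as had 16.5% of all genes tested in either direction. Exons of Tgm2 share 370 bases with Rprd1b on the opposite strand, which was at 149, 284 and 235 against 201, 191 and 174.

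The lysyl oxidases, which crosslink elastin and collagen, are given as a family although none passed the study thresholds. Lox was at 10366, 11212 and 11036 without the drug against 10096, 8724 and 8412 with it, giving -0.26 in log2 fold change (SE 0.27, limma adjusted p 0.763). Loxl1, the member most tied to elastin, was at 1207, 1119 and 1370 against 642, 490 and 1111, giving -0.80 in log2 fold change (SE 0.30, limma adjusted p 0.35). Loxl3 was at 1148, 1291 and 940 against 805, 673 and 440, giving -0.85 in log2 fold change (SE 0.28, limma adjusted p 0.262). The groups of Lox, Loxl1 and Loxl3 did not overlap, which held for 8.66% of all genes tested with the treated group lower. Loxl2, at -0.21 (SE 0.24), and Loxl4, at -0.60 (SE 0.59), had groups that overlapped, and the value of Loxl4 was 0.054 without amisulpride replicate 3. The values of the other 4 stayed below 0 in each of 14 alternatives. Loxl1 passed the study thresholds with weights per library (-1.02) and without amisulpride replicate 3 (-1.13), and Loxl3 passed without amisulpride replicate 1 (-1.04).

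Of 11 elastolytic enzymes, 9 were tested, with a median of -0.34, and 1 was lower at the study thresholds (3.01% of all genes). This was Mmp9, a gelatinase that degrades elastin, at 2658, 992 and 2581 in untreated and 638, 230 and 1337 in treated libraries. The groups overlapped, each treated library was lower than its counterpart by number, and the log2 fold change was -1.70 (SE 0.56, limma adjusted p 0.265), with an adjusted p of 0.00371 under the replicate block. Mmp9 no longer passed the p-value threshold without untreated replicate 1 (log2 fold change -1.46, limma p 0.0569) or amisulpride replicate 2 (-1.04, limma p 0.0528). Macrophages and neutrophils also express Mmp9. Of the 8 tested leucocyte markers, 6 had log2 fold changes below 0 and 2 above 0. The 2 that passed the study thresholds, Csf1r and Cd14, were both lower. Csf1r was at 114, 93 and 76 against 41, 23 and 100, and Cd14 at 121, 69 and 76 against 47, 25 and 13 (adjusted p 0.144, or 0.012 with the block). Adgre1, of macrophages, was at 39, 25 and 14 against 59, 43 and 32, above its counterpart by number in all 3, and Lyz2 at 3046, 1733 and 2188 against 3287, 1879 and 1394. The part of leucocyte RNA in the value of Mmp9 was not tested. Mmp12, the macrophage elastase, was at 40, 49 and 73 against 39, 50 and 18. Of 15 receptors of elastin and microfibrils, mostly integrin subunits, 12 were tested and 0 passed, with a median of -0.17. Itgb3, a subunit of the vitronectin receptor that binds fibrillin and fibulin-5, had the most negative value, -0.95 (SE 0.44, limma adjusted p 0.471).

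**Figure D4:**
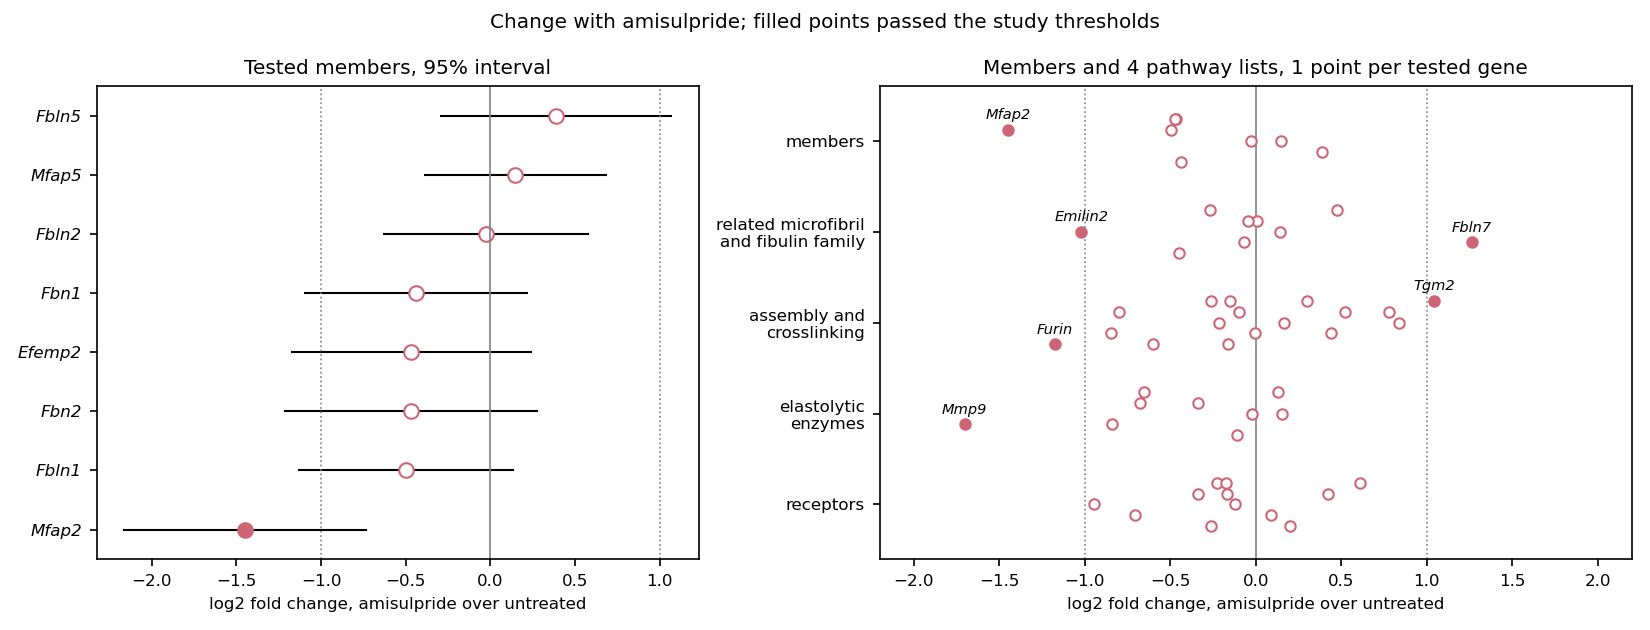
Log2 fold change, amisulpride over untreated (horizontal axes), of the 8 tested genes with 95% intervals on the left, and of these and the 4 pathway lists on the right, 1 point per tested gene. Filled points passed the study thresholds and dotted lines mark -1 and 1. Mfap2 at -1.45 is the only filled point of the 8, and Emilin2, Fbln7, Furin, Tgm2 and Mmp9 are the filled points of the lists.

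The genes most like these across libraries were sought for the 3 members with the lowest p-values, by the root mean square difference of mean-centred log2 values over the 6 libraries among 5579 other genes with a mean of at least 100. The profile nearest to Mfap2 was that of Crispld2, at a difference of 0.127, with values of 102, 206 and 203 in untreated and 71, 68 and 64 in treated libraries. Fdft1 followed at 0.269 and Cthrc1 at 0.276. Nearest to Fbln1 were Snora24 (0.0900), Snx10 (0.0965) and Slc12a2 (0.111), and nearest to Fbn1 were Prdx3 (0.0847), Foxk1 (0.0870) and Tmeff1 (0.102). These distances describe 6 libraries and carry no test.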

How the data were processed

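SFs were profiled in 6 libraries, grouped by the treatment label. Per the methods, the authors mapped reads to mm10 with TopHat2 and Bowtie2, counted them with GenomicRanges, normalised the counts and tested them with DESeq (versions not given in the sources used here, nor whether strand was used). The unit of the deposited table is a score: read counts normalised by the authors and rounded. The method of normalisation is not given in the sources used here, and the spacing of low values is that of 1 factor per library. Another 12 columns of values per library and the authors' fold changes and p-values were not used.

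Values were compared with limma 3.58.1 (R 4.3.3) on log2(normalised count + 1), with a variance trend (prior degrees of freedom 7.31), two-sided, for genes of at least 10 in at least 3 libraries. This understates changes of low genes. p-values were adjusted by Benjamini-Hochberg over all genes. Depth was estimated from the spacing of low values and is uncertain for untreated replicate 1. Same-numbered libraries deviated together (correlations of 0.229, 0.240 and 0.201), so the replicate block is printed where it changes a call of a gene named here. Where a gene or ratio is said to keep 1 direction by number, the share of all genes that do so was not counted. Scripts were tested on simulated data.

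The members and lists were chosen with earlier results of these data known. Named were all members and, from each pathway list, the genes past a threshold. The lysyl oxidases, latent TGF-β binding proteins, contractile genes, Itgb3, Mmp12 and the ratios between members were added after their values were seen. Alternatives covered pseudocount, filter, normalisation, weights, variance trend, block and each library left out.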

Additional observations from a re-analysis of the deposited data

How the results depend on the processing

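The number of members past the study thresholds was 1 in every alternative, Mfap2 in each. The number with an adjusted p under 0.05 was 0 in the comparison as reported and 0 with any library left out (1 or 2 members at an unadjusted p under 0.05). It was 1 with weights per library and 1 with the replicate block, Mfap2 in both (adjusted p 0.0158 and 0.0136). The block changed no other call of a member. The log2 fold change of Fbln2, -0.03, ranged from -0.27 to 0.17 with a library left out and was above 0 without untreated replicate 3, amisulpride replicate 1 or amisulpride replicate 2. That of Loxl4, -0.60, ranged from -0.95 to 0.054, above 0 without amisulpride replicate 3. The other tested members kept their sign. Fbn2 was not tested at a filter of 50, and Eln and Mfap4 were tested only without a filter. Over all genes, 719 passed the study thresholds, against 1313 without a filter and 331 at a filter of 50. The count with an adjusted p under 0.05 was 36, against 57 with a pseudocount of 5, 57 without a filter, 66 with quantile normalisation, 195 with weights, 263 with the replicate block and 0 to 120 with a library left out (1083 and 911 genes at an unadjusted p under 0.05 in the alternatives with 0). Counts of the lists with a library left out were 1 to 3 for related genes (2 as reported), 0 to 4 for assembly and crosslinking (2), 0 to 2 for elastolytic enzymes (1) and 0 to 1 for receptors (0). Depth limits Eln and Mfap4, where single reads decide the value.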
